A study of Mus musculus with 6 samples.

Results

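The transcription factor NF-kappaB and the proteins that hold it back or set it free were followed through 44 genes, listed by name with earlier results of these data known, out of 35275 gene identifiers in the count table. They are 5 subunits, 6 members of the IkappaB family, 10 kinases and kinase partners, 11 ubiquitin regulators, 10 receptor-proximal adaptors and kinases, and 2 further genes named for their induction by tumour necrosis factor (TNF). All 44 had an identifier in the table, 42 held enough counts to be tested, and Tab1 and Tnip3 did not. The libraries came from liver cells of 1-year-old mice that carry both p16-Cre and Rosa26-mTmG. In these mice a Cre recombinase under the control of the p16 gene switches a membrane reporter from red to green fluorescence, so a cell is green if it or an ancestor used that promoter. Cells enriched for CD31, an adhesion molecule of endothelium that many leukocytes and platelets also carry, were sorted into a GFP-positive fraction with 3 libraries and a GFP-negative fraction with 3 libraries. Both fractions came from mice of the same genotype and age. Green fluorescence records past use of the promoter and not p16 in the cell at the time of sorting. The labels do not say whether animals were pooled, whether the fractions came from the same animals, or whether the described culture in endothelial medium preceded the sort.

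NF-kappaB dimers wait in the cytoplasm bound to IkappaB proteins. In the canonical route, receptors for TNF, interleukin-1 or microbial products build ubiquitin chains that recruit the kinase TAK1 and the IkappaB kinase complex, and this complex marks IkappaB for destruction. In the alternative route, receptors such as CD40, the lymphotoxin beta receptor and BAFF receptor stabilise the kinase NIK, which leads to processing of the Nfkb2 product. Several inhibitors, among them IkappaB alpha and A20, are themselves targets of NF-kappaB and close negative feedback loops. In the liver, Kupffer cells, sinusoidal endothelium and lymphocytes all use the pathway.

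The libraries held 16766556 to 17849620 counts in the GFP-positive and 18067411 to 22627555 counts in the GFP-negative fraction. Cdkn2a, the gene that encodes p16, had 15, 27 and 7 counts in GFP-positive libraries and 0 counts in each GFP-negative library. These counts are of the whole gene and do not tell its transcripts apart. Pecam1, which encodes CD31, was present in both fractions at 427, 412 and 519.9 CPM in the GFP-positive and 307, 387 and 332 CPM in the GFP-negative libraries. Counts were scaled to library size as CPM, the usual unit of counts relative to the effective library total, and p-values are from edgeR with adjustment across the 12122 genes tested. No label names an animal, so these p-values rest on the spread among 3 libraries a group, and part of it may be technical. Markers of other cell types differed between the fractions. Kupffer cell markers were higher in 11 of 11 tested, with a summed level of 21810 to 23033 CPM in GFP-positive and 1344 to 1798 CPM in GFP-negative libraries. Sinusoidal endothelial markers were higher in 9 of 9 (GFP-positive 11220 to 12699 CPM, GFP-negative 4490 to 5141 CPM), and pan-endothelial markers in 6 of 10 (GFP-positive 3619 to 4282 CPM, GFP-negative 1785 to 2008 CPM). B cell markers were lower in 9 of 9, with 106 to 247 CPM in GFP-positive against 14144 to 15284 CPM in GFP-negative libraries, and Pax5 was at 0 counts in the GFP-positive fraction. T and NK cell markers were lower in 2 of 9 tested (GFP-positive 26.4 to 90.7 CPM, GFP-negative 781 to 875 CPM), with Cd8a at 0 counts in GFP-positive libraries and Klrb1c at 0 in both fractions. For 8 of these 9 all GFP-positive libraries lay below all GFP-negative ones (88.9%, against 23.9% of all genes tested). Their median log2 fold change of GFP-positive over GFP-negative libraries was −4.23, with 1 gene above 0. Immediate-early genes, a rapid transcriptional answer to stress, stimulation or tissue dissociation, were lower in 14 of 14 (GFP-positive 531 to 743 CPM, GFP-negative 10708 to 11242 CPM). Hepatocyte markers were lower in 4 of 8 (GFP-positive 1074 to 1446 CPM, GFP-negative 2160 to 2462 CPM). Stellate cell and fibroblast markers were higher in 1 of 4 tested (GFP-positive 250.0 to 294 CPM, GFP-negative 34.6 to 98.6 CPM), and neutrophil markers changed in 0 of 2 (GFP-positive 17.9 to 29.2 CPM, GFP-negative 1.45 to 10.1 CPM), with Elane, Ngp and Ltf at 0 in both fractions and S100a9 and Mpo at 0 in the GFP-negative one.

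**Figure D1:**
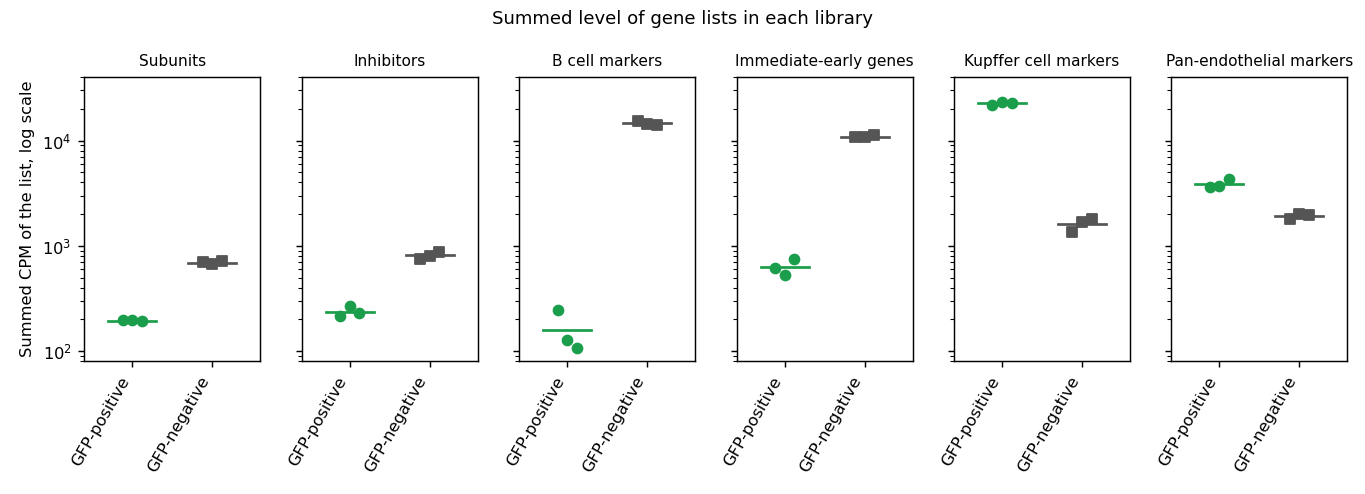
Summed level, in CPM on a log axis, of the NF-kappaB subunits and the IkappaB family (titled inhibitors) in each library. B cell, Kupffer cell and pan-endothelial markers and immediate-early genes are shown likewise. Points are libraries and lines are group means. Subunits sum to 191 to 196 CPM in GFP-positive and 668 to 716 CPM in GFP-negative libraries, while B cell markers sum to 106 to 247 CPM in GFP-positive and 14144 to 15284 CPM in GFP-negative libraries.

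Against this background the question was how the NF-kappaB genes differed between cells with and without a history of p16 promoter use. Of the 42 tested, 14 were lower in GFP-positive libraries (33.3%, against 10.1% of all genes tested), and 1 was higher (2.38%, against 7.65% of all genes tested). In either direction, 17.8% of all genes passed an adjusted p of 0.05. The lower genes were Nfkb2, Rel, Rela, Relb, Nfkbia, Nfkbib, Nfkbid, Bcl3, Ikbkb, Map3k8, Tnfaip3, Birc3, Irak2 and Irak3, and the higher gene was Tnfaip2. The log2 fold change of GFP-positive over GFP-negative libraries (log2FC) had a median of −0.94 over the 42 genes, beside −0.09 over all genes tested. The summed level of the 44 genes was 1744 to 1928 CPM in GFP-positive and 3414 to 3926 CPM in GFP-negative libraries. All GFP-positive libraries lay below all GFP-negative ones for 20 of the 42 genes (47.6%, against 23.9% of all genes tested) and above them for 3 (against 18.5% of all genes tested). In such bulk fractions, fewer cells of a type and less RNA per cell cannot be told apart. The median log2FC was −7.03 for the B cell markers and −4.36 for the immediate-early genes, and their part in the NF-kappaB differences was not tested. With 275 immunoglobulin and lymphocyte marker genes left out of the scaling and the test, the counts were again 14 lower and 1 higher. That fit changes only the scaling and the adjustment. It takes no lymphocyte RNA out of the counts of the NF-kappaB genes, so it cannot show what part lymphocytes had. Without GFP-negative library 1 they were 9 and 1, in a fit that called 994 genes of the whole table, against 2157 with all libraries, and without GFP-negative library 2 no NF-kappaB gene was called higher.

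**Figure D2:**
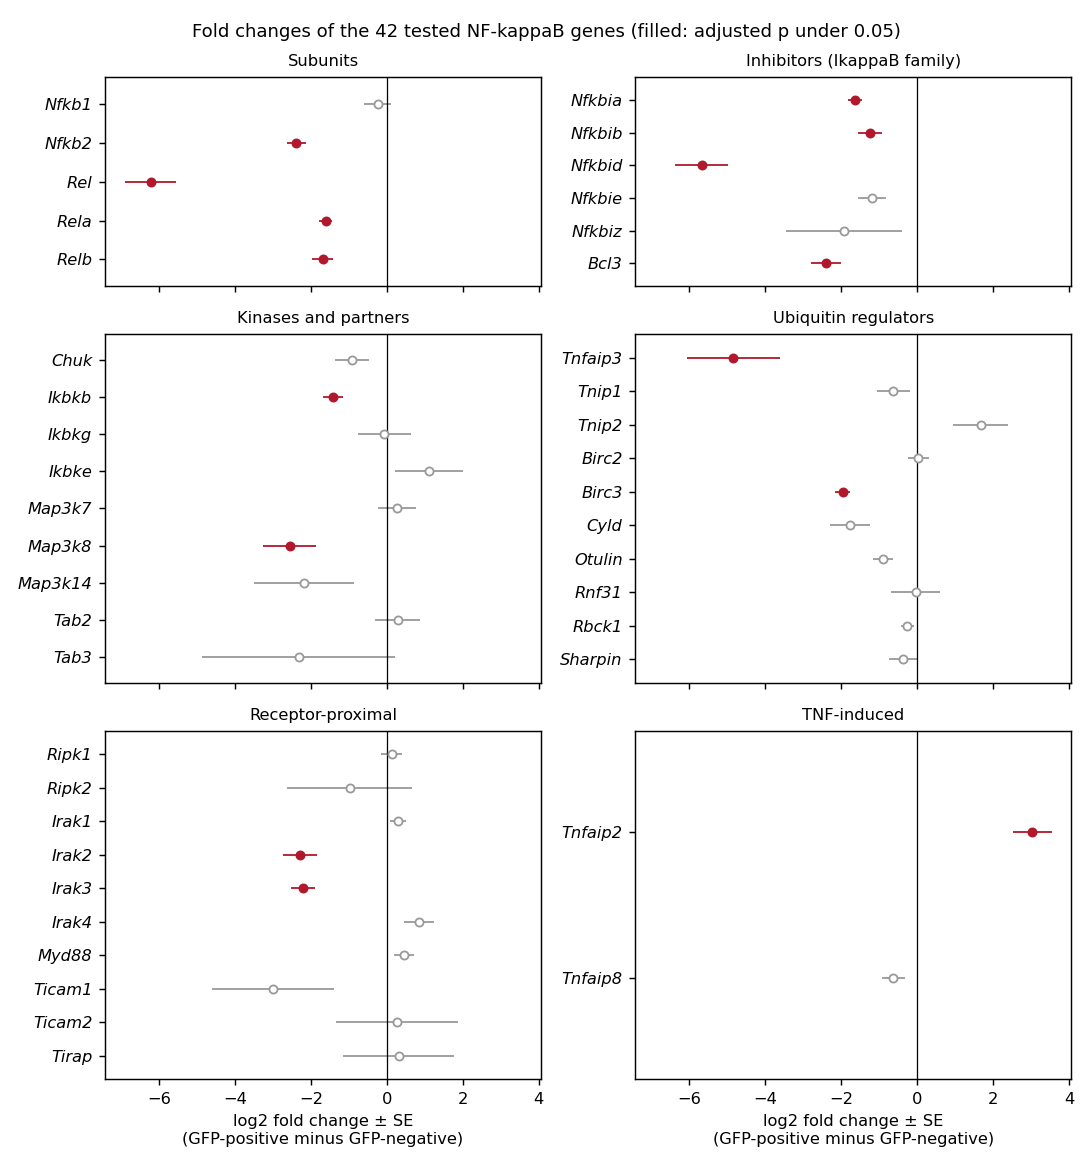
Log2 fold change (log2FC, GFP-positive minus GFP-negative) with its standard error for the 42 tested NF-kappaB genes, grouped by role; filled red points passed an adjusted p of 0.05 and open grey points did not. Of the filled points, 14 lie left of 0, between −6.22 for Rel and −1.24 for Nfkbib, and Tnfaip2 lies to the right, at 3.03.

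RefSeq promoter windows of build GRCm38.p6, from 250 bases before to 50 bases after the annotated gene start, were found by symbol for 34 of the 44 genes. Nfkb1, Relb, Nfkbiz, Ikbkb, Map3k8, Tab1, Sharpin, Ripk2, Ticam2 and Tnfaip8 had no window in the table. The kappaB consensus motif of 10 bases was searched on both strands, with overlapping matches merged into 1 stretch. At least 1 match lay in a window of 11 of the 34 genes (32.4%), beside 5.14% of the 27025 genes in the table. At least 2 separate matches lay in 3 of the 34 (8.82%), beside 0.196% of all genes. For a gene with several windows, the window with the most matches was counted. The list holds pathway genes, several of them known NF-kappaB targets, so the choice of list may itself raise these shares. Of the 12 called genes with a window 6 held a match, as did 5 of the 22 genes that were not called or not tested. The stretches shown are those of the 6 genes that held a match and passed the test, a choice made on the outcome, and all 6 were lower in GFP-positive libraries. The other 5 genes with a match, Nfkbie, Map3k7, Tnip1, Tnip3 and Cyld, are placed in the map of matches only. Each stretch runs 5′ to 3′ along its gene, with the bases of the match in capitals and 15 bases on either side of the outermost matches.
Nfkb2: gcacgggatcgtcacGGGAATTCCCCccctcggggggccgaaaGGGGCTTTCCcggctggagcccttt
Rel: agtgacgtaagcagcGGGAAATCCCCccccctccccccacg
Nfkbia: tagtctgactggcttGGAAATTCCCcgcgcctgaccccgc
Nfkbid: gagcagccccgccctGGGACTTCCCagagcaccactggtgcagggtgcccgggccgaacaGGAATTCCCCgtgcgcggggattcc
Bcl3: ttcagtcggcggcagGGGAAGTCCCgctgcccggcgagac
Tnfaip3: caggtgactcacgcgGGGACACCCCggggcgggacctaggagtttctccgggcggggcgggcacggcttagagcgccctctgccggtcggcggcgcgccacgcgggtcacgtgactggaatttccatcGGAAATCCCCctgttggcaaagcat
They lie at chr19:46304683-46304750 on the plus strand (Nfkb2), chr11:23771036-23771076 on the minus strand (Rel), chr12:55492652-55492691 on the minus strand (Nfkbia), chr7:30422165-30422249 on the plus strand (Nfkbid), chr7:19822729-19822768 on the minus strand (Bcl3) and chr10:19015398-19015550 on the minus strand (Tnfaip3). The matches begin 39 and 11 bases before the gene start in Nfkb2, 92 before it in Rel, 29 before it in Nfkbia, 226 and 181 before it in Nfkbid, and 125 and 12 before it in Tnfaip3. In Bcl3 the match begins at base 3 of the annotated transcript, within its first exon. A match is a description of these letters and not evidence of binding.

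**Figure D3:**
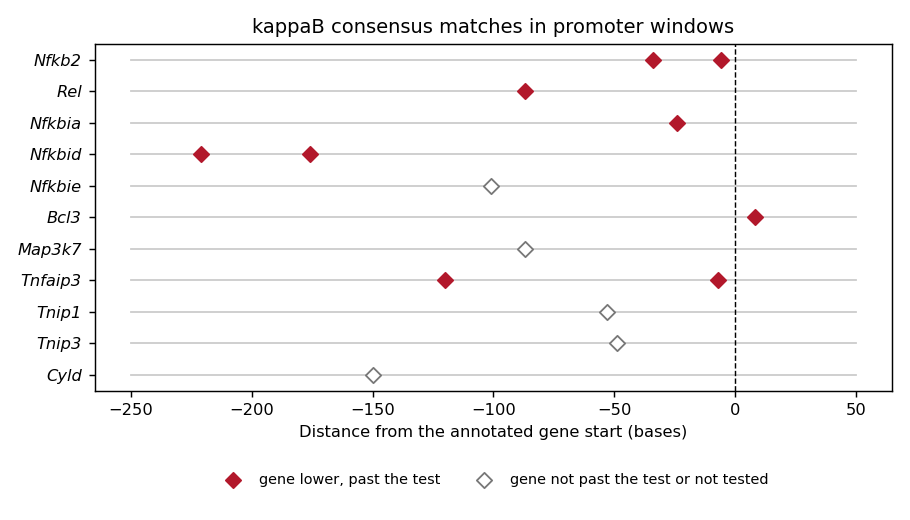
Position of kappaB consensus matches (diamonds, drawn at the middle of a match) along the promoter windows of the 11 NF-kappaB genes that hold one, in bases from the annotated gene start (dashed line). Filled diamonds mark the 6 genes lower in GFP-positive libraries and open ones the 5 genes that did not pass or were not tested, and 10 of the 11 genes have their matches before the start.

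Of the 5 subunits 4 fell (80%, against 10.1% of all genes tested) and 1 did not pass the test. Rel (ENSMUSG00000020275), which encodes c-Rel, a subunit most abundant in lymphocytes and myeloid cells, stood at 3.41, 0.990 and 0.720 CPM in GFP-positive libraries 1 to 3, against 126, 146 and 109 CPM in GFP-negative libraries 1 to 3. Its 3 GFP-positive libraries were all far below every GFP-negative library, and the fall was 74.6-fold (log2FC −6.22 ± 0.68, SE; edgeR adjusted p = 0.00164). Nfkb2 (ENSMUSG00000025225), the precursor of the alternative route, stood at 29.2, 38.8 and 23.2 CPM in the GFP-positive and 152, 149 and 175 CPM in the GFP-negative libraries. The groups did not overlap, and the log2FC was −2.38 ± 0.26 (edgeR adjusted p = 0.00155). Relb (ENSMUSG00000002983), the usual partner of processed Nfkb2, had 26.1, 24.5 and 33.4 CPM in the GFP-positive and 102, 91.1 and 77.3 CPM in the GFP-negative libraries, again without overlap. It fell by a log2FC of −1.69 ± 0.27 (edgeR adjusted p = 0.00757). Rela (ENSMUSG00000024927), the main activating subunit of the canonical route, held 87.6, 82.3 and 84.8 CPM in the GFP-positive and 231, 242 and 304 CPM in the GFP-negative libraries. The 3 GFP-positive values lay close together and below all GFP-negative ones, with a log2FC of −1.61 ± 0.17 (edgeR adjusted p = 0.00134). Nfkb1 (ENSMUSG00000028163), the precursor of the p50 subunit, had 49.9, 49.8 and 49.2 CPM in the GFP-positive and 85.9, 39.8 and 50.5 CPM in the GFP-negative libraries. Here the groups overlapped, since GFP-negative library 2 lay below all GFP-positive libraries, and the log2FC of −0.24 ± 0.34 did not pass (edgeR adjusted p = 0.711).

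Scaled by the merged exon length of all transcripts of a gene in the GENCODE M21 annotation, the subunits stood in a different order in the fractions. In GFP-positive libraries the mean level per kilobase was 27.6 CPM for Rela, 7.20 for Relb, 6.64 for Nfkb2, 4.11 for Nfkb1 and 0.229 for Rel. Relb and Nfkb2 did not differ beyond their spread there. In GFP-negative libraries it was 84.4 CPM for Rela, 34.6 for Nfkb2, 23.2 for Relb, 17.0 for Rel and 4.87 for Nfkb1. Rela stood first in both, and Rel was last only in the GFP-positive fraction. The places between depend on the merged exon length, which is 12061 bases for Nfkb1 and 3072 for Rela. Without it Nfkb1 averaged 49.6 CPM over GFP-positive libraries, above Nfkb2 (30.4 CPM) and Relb (28.0 CPM). Over GFP-negative libraries Nfkb1, at 58.7 CPM, was last without it too. The B cell markers, in 9 of 9 genes, were lower alongside Rel, and their part in its fall was not tested. The 4 calls among subunits held whichever library was left out, with adjusted p-values of at most 0.0426, and without GFP-positive library 1 the log2FC of Rel was −7.20.

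**Figure D4:**
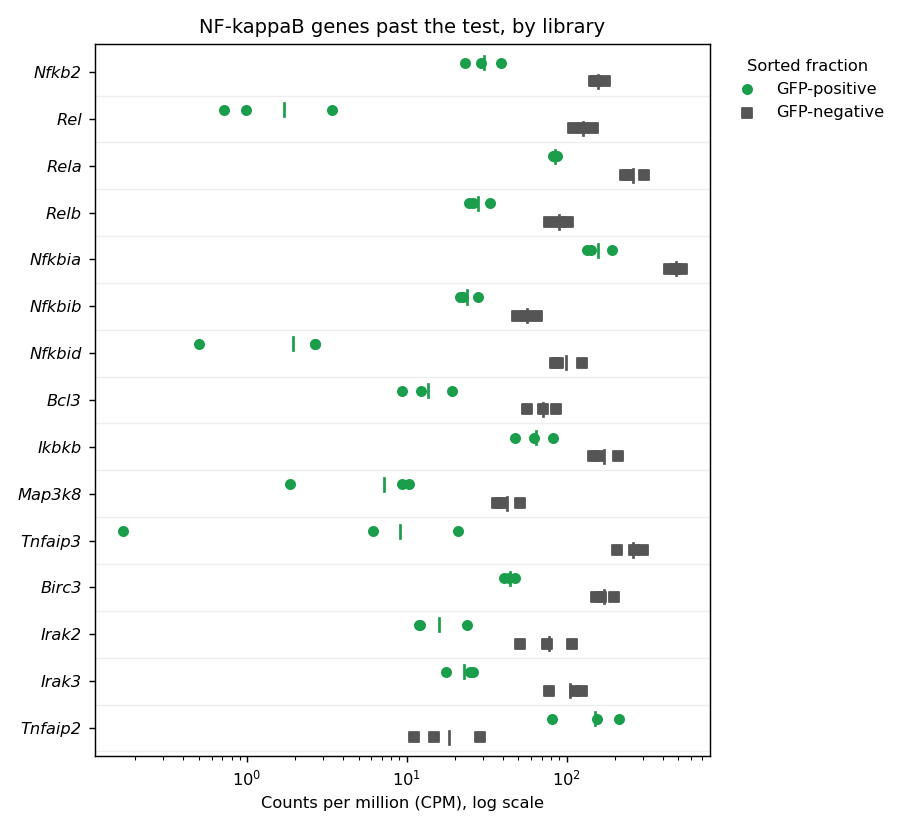
Level in CPM, on a log axis, of the 15 NF-kappaB genes past the test in each library, with vertical ticks at the group means. GFP-positive points (green circles) lie left of GFP-negative ones (grey squares) in 14 genes, while Tnfaip2, at the bottom, shows the opposite order; Rel, Nfkbid and Tnfaip3 are at or below 3.41, 2.68 and 20.9 CPM in every GFP-positive library.

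Of the 6 members of the IkappaB family 4 fell (66.7%, against 10.1% of all genes tested) and 2 did not pass. In all 6 the GFP-positive libraries lay below the GFP-negative ones (100%, against 23.9% of all genes tested). Nfkbia (ENSMUSG00000021025), which encodes IkappaB alpha, the feedback inhibitor that NF-kappaB induces, stood at 143, 193 and 134 CPM in GFP-positive libraries 1 to 3, against 437, 482 and 529.9 CPM in GFP-negative libraries 1 to 3. No library of either fraction reached the range of the other, and the fall was 3.08-fold (log2FC −1.62 ± 0.18, SE; edgeR adjusted p = 0.00184). Nfkbib (ENSMUSG00000030595), encoding IkappaB beta, had 21.5, 22.5 and 28.0 CPM in the GFP-positive and 49.0, 65.2 and 55.8 CPM in the GFP-negative libraries. The log2FC was −1.24 ± 0.31 (edgeR adjusted p = 0.0335). Nfkbie (ENSMUSG00000023947), encoding IkappaB epsilon, had 37.5, 20.4 and 43.4 CPM in the GFP-positive and 70.3, 96.3 and 64.8 CPM in the GFP-negative libraries, with GFP-positive library 2 the lowest. Its log2FC of −1.19 ± 0.37 did not pass (edgeR adjusted p = 0.0682).

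The other 3 genes of this family encode nuclear IkappaB proteins, which act on promoters rather than in the cytoplasm. Nfkbid (ENSMUSG00000036931), encoding IkappaBNS, a protein that B cells need for full activation in mice, stood at 2.66, 2.68 and 0.499 CPM in the GFP-positive and 85.1, 88.7 and 125 CPM in the GFP-negative libraries. GFP-positive library 3 was the lowest, and the fall over the group was 51.1-fold (log2FC −5.68 ± 0.69, SE; edgeR adjusted p = 0.00257). Bcl3 (ENSMUSG00000053175), a nuclear partner of p50 and p52 homodimers, had 9.36, 19.1 and 12.2 CPM in the GFP-positive and 71.3, 56.7 and 86.3 CPM in the GFP-negative libraries. It fell by a log2FC of −2.40 ± 0.39 (edgeR adjusted p = 0.00857). Nfkbiz (ENSMUSG00000035356), encoding IkappaB zeta, an inducible coactivator of inflammatory genes, had 0, 7.98 and 11.0 CPM in the GFP-positive and 35.6, 18.8 and 17.9 CPM in the GFP-negative libraries. GFP-positive library 1 held 0 counts of it, and the log2FC of −1.93 ± 1.52 did not pass (edgeR adjusted p = 0.470). The calls of Nfkbia, Nfkbid and Bcl3 held whichever library was left out. That of Nfkbib was lost without GFP-positive library 1 (edgeR adjusted p = 0.0799) or 2 (0.0813) and without GFP-negative library 1 (0.0844), 2 (0.123) or 3 (0.0981), and with no filter on low counts (0.0570). Nfkbib and the opposite-strand gene Ccer2 share 314 bases, or 14.5% of the exons of Nfkbib, and whether reads were counted by strand is not known here.

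Among 10 kinases and kinase partners 2 fell, 7 did not pass and 1 was not tested. The share lower was 22.2% of those tested, against 10.1% of all genes tested. Ikbkb (ENSMUSG00000031537), the catalytic IKK beta that phosphorylates IkappaB in the canonical route, stood at 62.1, 82.4 and 47.8 CPM in GFP-positive libraries 1 to 3, against 209, 158 and 147 CPM in GFP-negative libraries 1 to 3. The groups did not overlap (log2FC −1.42 ± 0.27, SE; edgeR adjusted p = 0.0144). Map3k8 (ENSMUSG00000024235), the kinase TPL2, which is held by the Nfkb1 precursor and feeds the ERK cascade, had 9.29, 1.86 and 10.3 CPM in the GFP-positive and 50.8, 37.0 and 38.8 CPM in the GFP-negative libraries. It was lowest in GFP-positive library 2 (log2FC −2.56 ± 0.69; edgeR adjusted p = 0.0459). Chuk, the IKK alpha of the alternative route, had 16.1, 17.7 and 24.6 CPM in the GFP-positive and 48.1, 23.4 and 38.5 CPM in the GFP-negative libraries. Its groups overlapped and its log2FC of −0.92 ± 0.44 did not pass (edgeR adjusted p = 0.217). Map3k14, the kinase NIK that starts the alternative route, had 0.0620, 16.7 and 7.76 CPM in the GFP-positive and 43.9, 28.7 and 38.3 CPM in the GFP-negative libraries. All GFP-positive values were below all GFP-negative ones but spread widely, and the log2FC of −2.18 ± 1.32 did not pass (edgeR adjusted p = 0.330). The scaffold gene Ikbkg, encoding NEMO, averaged 51.9 ± 32.5 CPM over GFP-positive and 54.3 ± 32.0 CPM over GFP-negative libraries (SD, n = 3 each). Map3k7, the kinase TAK1, averaged 62.6 ± 30.6 CPM over GFP-positive and 51.9 ± 20.7 CPM over GFP-negative libraries, and its partner Tab2 averaged 21.0 ± 8.59 CPM over GFP-positive and 17.2 ± 8.77 CPM over GFP-negative libraries. The groups overlapped in all 3 genes, and their log2FC values of −0.06, 0.27 and 0.29 did not pass. Ikbke, an IKK-related kinase, had a log2FC of 1.11 ± 0.89 and Tab3, another TAK1 partner, one of −2.32 ± 2.54, and neither passed. Tab1, the third TAK1 partner, held 0, 4.37 and 0 CPM in GFP-positive libraries and 2 counts over all GFP-negative ones, and was too low to test. The call of Ikbkb was lost without GFP-negative library 1 (edgeR adjusted p = 0.0607). That of Map3k8 was lost with no filter on low counts (0.0534), without GFP-positive library 1 (0.0859) or 3 (0.0643), and without GFP-negative library 1 (0.141), 2 (0.106) or 3 (0.109).

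Among 11 ubiquitin regulators 2 fell, 8 did not pass and 1 was not tested. The share lower was 20% of those tested, against 10.1% of all genes tested. Tnfaip3 (ENSMUSG00000019850), which encodes A20, an enzyme that edits ubiquitin chains to end signalling, stood at 20.9, 6.12 and 0.166 CPM in GFP-positive libraries 1 to 3, against 208, 266 and 303 CPM in GFP-negative libraries 1 to 3. GFP-positive library 1 held most of the remaining transcripts and library 3 almost none, and every GFP-negative library was above both (log2FC −4.84 ± 1.23, SE; edgeR adjusted p = 0.0360). Birc3 (ENSMUSG00000032000), the ubiquitin ligase cIAP2, which is an NF-kappaB target, had 43.9, 40.7 and 47.5 CPM in the GFP-positive and 164, 199.6 and 152 CPM in the GFP-negative libraries. It fell 3.90-fold with narrow spread in both fractions (log2FC −1.96 ± 0.20; edgeR adjusted p = 0.00120). Its paralogue Birc2, encoding cIAP1, averaged 73.7 ± 16.6 CPM over GFP-positive and 72.1 ± 12.6 CPM over GFP-negative libraries (SD, n = 3 each), with overlapping groups and a log2FC of 0.03 ± 0.28 that did not pass (edgeR adjusted p = 0.961). The deubiquitinases Cyld and Otulin, which cut chains that carry the signal, had log2FC values of −1.77 ± 0.54 and −0.89 ± 0.26. Neither passed with edgeR (adjusted p = 0.0659 and 0.0587), although no GFP-positive library reached a GFP-negative one in either gene, and DESeq2 called both (adjusted p = 0.00647 and 0.0151) as well as Nfkbie (0.0190). The 3 genes of the linear ubiquitin ligase, which joins chains at the TNF receptor, were Rbck1, Rnf31 and Sharpin, with log2FC values of −0.26 ± 0.17, −0.03 ± 0.64 and −0.37 ± 0.36. None of them passed, and Rbck1 averaged 167 ± 13.4 CPM over GFP-positive and 199.5 ± 26.2 CPM over GFP-negative libraries. The A20-binding genes Tnip1 and Tnip2 had log2FC values of −0.63 ± 0.43 and 1.67 ± 0.74, which did not pass either. Tnip3, another A20-binding gene that was too low to test, had 0 counts in GFP-positive libraries and 0.517, 0 and 0 CPM in GFP-negative ones. The call of Birc3 held whichever library was left out. That of Tnfaip3 was lost when GFP-positive library 2 was left out (edgeR adjusted p = 0.106) and likewise for GFP-negative library 1 (0.0938), 2 (0.0971) or 3 (0.0991), and without GFP-positive library 1 its log2FC was −6.37.

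Among 10 adaptors and kinases close to the receptors 2 fell (20%, against 10.1% of all genes tested) and 8 did not pass. Irak3 (ENSMUSG00000020227), which encodes IRAK-M, a brake on signals of Toll-like and interleukin-1 receptors, stood at 17.5, 24.8 and 26.1 CPM in GFP-positive libraries 1 to 3, against 78.1, 114 and 125 CPM in GFP-negative libraries 1 to 3. The highest GFP-positive library was well below the lowest GFP-negative one (log2FC −2.21 ± 0.31, SE; edgeR adjusted p = 0.00447). Irak2 (ENSMUSG00000060477), a kinase of the same complex that sustains its output, had 12.0, 12.1 and 23.8 CPM in the GFP-positive and 75.3, 50.9 and 108 CPM in the GFP-negative libraries. Without overlap between the groups, it fell by a log2FC of −2.29 ± 0.45 (edgeR adjusted p = 0.0163). The other genes of this complex did not pass the test. Myd88, the shared adaptor, averaged 81.2 ± 12.1 CPM over GFP-positive and 59.3 ± 10.1 CPM over GFP-negative libraries (SD, n = 3 each), and all GFP-positive values lay above all GFP-negative ones, but its log2FC of 0.45 ± 0.25 did not pass (edgeR adjusted p = 0.283). Irak4, the kinase that starts the cascade, averaged 43.4 ± 13.1 CPM over GFP-positive and 24.0 ± 6.15 CPM over GFP-negative libraries, also with every GFP-positive library above the others, and its log2FC of 0.86 ± 0.40 did not pass (edgeR adjusted p = 0.203). Irak1 averaged 162 ± 23.2 CPM over GFP-positive and 132 ± 24.0 CPM over GFP-negative libraries and Ripk1, the kinase that TNF receptors recruit, averaged 58.6 ± 4.81 CPM over GFP-positive and 53.8 ± 12.7 CPM over GFP-negative libraries. Their log2FC values of 0.30 ± 0.21 and 0.12 ± 0.28 did not pass, and the groups overlapped. Ripk2, which serves the NOD sensors, ranged from 0 to 20.8 CPM in GFP-positive and from 5.12 to 35.1 CPM in GFP-negative libraries. Ticam1, the adaptor TRIF, was at or below 4.71 CPM in GFP-positive and at or above 10.7 CPM in GFP-negative libraries, with a log2FC of −2.99 ± 1.61 that did not pass (edgeR adjusted p = 0.272). The bridging adaptors Ticam2 and Tirap had log2FC values of 0.27 ± 1.60 and 0.32 ± 1.46, which did not pass. The call of Irak3 held whichever library was left out. That of Irak2 was lost without GFP-positive library 2 (edgeR adjusted p = 0.0506) and without GFP-negative library 1 (0.0572) or 3 (0.0689).

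Tnfaip2 (ENSMUSG00000021281), a gene first described as TNF-induced in human endothelial cells and also used by myeloid cells, was the one member that rose. It stood at 80.6, 214 and 155 CPM in GFP-positive libraries 1 to 3, against 11.1, 14.9 and 28.8 CPM in GFP-negative libraries 1 to 3. Every GFP-positive library was above every GFP-negative one, and the rise was 8.18-fold (log2FC 3.03 ± 0.51, SE; edgeR adjusted p = 0.00962). Kupffer cell markers rose in the same libraries by a median log2FC of 3.87 and pan-endothelial markers by 1.12, and their part in the rise was not tested. The call was lost without GFP-negative library 2 (edgeR adjusted p = 0.0502). Tnfaip8, a regulator of cell death, averaged 58.9 ± 17.3 CPM over GFP-positive and 90.7 ± 15.6 CPM over GFP-negative libraries (SD, n = 3 each) and did not pass (log2FC −0.62 ± 0.30; edgeR adjusted p = 0.225).

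The genes also differed in how evenly the libraries of a fraction held them, as did genes of the whole table. The median coefficient of variation of the 42 genes was 37.0% in the GFP-positive and 22.7% in the GFP-negative fraction, beside 41.7% and 31.7% over all genes tested. In the GFP-positive fraction 5 genes, Map3k14, Nfkbiz, Ripk2, Tirap and Tnfaip3, were under 1 CPM in at least 1 library and over 10 CPM in another (11.9% of the 42, beside 8.52% of all genes tested). In the GFP-negative fraction 1 gene, Tab3, did so (2.38%, beside 3.83%). GFP-positive library 1 was the low one for 3 of the 5, with 0 counts of Nfkbiz and Ripk2 and 1 count of Map3k14. Tirap was lowest in library 2, with 1 count, and Tnfaip3 in library 3, with 3 counts. At the other end, Nfkb1 and Rela varied by 0.760% and 3.15% in the GFP-positive fraction.

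Known target genes of NF-kappaB moved in both directions. Of 36 listed 27 were tested: 5 rose (18.5%, against 7.65% of all genes tested), 7 fell (25.9%, against 10.1%) and 15 did not pass, with a median log2FC of −0.05. Ccr7, a homing receptor of lymphocytes and dendritic cells, averaged 27.3 ± 6.85 CPM over GFP-positive and 3359 ± 294 CPM over GFP-negative libraries (SD, n = 3 each), a log2FC of −6.94 ± 0.25 (SE; edgeR adjusted p = 1.7e-05). Cd83, an activation marker of B and dendritic cells, fell to 92.7 ± 17.7 CPM over GFP-positive libraries, against 2076 ± 144 CPM over GFP-negative ones (log2FC −4.48 ± 0.18; edgeR adjusted p = 2.5e-05). Ltb, encoding lymphotoxin beta, a ligand of the alternative route, fell by a log2FC of −6.60 ± 0.56 (edgeR adjusted p = 0.000533), and Gadd45b, a stress gene, by one of −3.12 ± 0.35 (edgeR adjusted p = 0.00172). The higher targets included Cflar, encoding the caspase-8 inhibitor FLIP, at 388 ± 21.3 CPM over GFP-positive and 89.5 ± 9.90 CPM over GFP-negative libraries (log2FC 2.12 ± 0.15; edgeR adjusted p = 0.000224). Vcam1, an adhesion molecule for leukocytes, rose to 257 ± 93.3 CPM over GFP-positive libraries, against 51.7 ± 12.4 CPM over GFP-negative ones (log2FC 2.31 ± 0.34; edgeR adjusted p = 0.00569). The cytokine genes Il1a and Il1b rose by log2FC values of 2.40 ± 0.31 and 4.49 ± 1.10 (edgeR adjusted p = 0.00332 and 0.0322). Tnf, encoding TNF itself, and Lta, encoding lymphotoxin alpha, each held 1 count over the GFP-positive fraction, in library 2, so no fold is given for them. Targets called higher were 3 without GFP-positive library 1, 2 or 3 or GFP-negative library 2, and targets called lower were 4 without GFP-positive library 1 or GFP-negative library 1, 2 or 3. Without GFP-positive library 2 the log2FC of Ltb was −7.42. The call of Il1b was lost without GFP-positive library 1 (edgeR adjusted p = 0.0700), 2 (0.0780) or 3 (0.0598) or GFP-negative library 2 (0.108), and without GFP-negative library 3 its log2FC was 6.45. The median log2FC was 3.87 for Kupffer cell and −7.03 for B cell markers in these libraries, and their part was not tested.

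Upstream receptors and adaptors of the pathway were likewise mixed, with 3 higher (18.8%, against 7.65% of all genes tested), 5 lower (31.2%, against 10.1%) and 8 not past the test among 16 tested of 17 listed. Their median log2FC was −0.16. In these libraries 9 of 9 B cell markers were lower and 11 of 11 Kupffer cell markers higher, and their part in the values of receptors and adaptors was not tested. Traf5, an adaptor of TNF receptor family members in lymphocytes, had 0 counts in GFP-positive libraries and 87.6, 74.5 and 26.8 CPM in GFP-negative libraries. Set against 3 counts over the GFP-positive group this is at least 1078-fold lower (edgeR adjusted p = 0.00260), a bound that covers counting error only. Tnfrsf13c, the BAFF receptor of B cells, averaged 1.83 ± 2.96 CPM over GFP-positive and 272 ± 20.8 CPM over GFP-negative libraries (SD, n = 3 each), a log2FC of −7.21 ± 1.38 (SE; edgeR adjusted p = 0.0149). Tnfrsf1b, the second TNF receptor, fell by a log2FC of −2.16 ± 0.33 (edgeR adjusted p = 0.00676), Cd40 by one of −2.13 ± 0.44 (0.0188) and the adaptor Traf2 by one of −1.62 ± 0.37 (0.0246). Tnfrsf1a, the widely used first TNF receptor, rose instead, at 246 ± 51.9 CPM over GFP-positive and 103 ± 37.3 CPM over GFP-negative libraries (log2FC 1.26 ± 0.30; edgeR adjusted p = 0.0297). Ltbr, the lymphotoxin beta receptor of stromal, endothelial and myeloid cells, rose by a log2FC of 1.26 ± 0.32 (edgeR adjusted p = 0.0366). Tnfrsf11a, encoding RANK, rose by one of 7.99 ± 1.75 (0.0235), with at most 0.207 CPM in any GFP-negative library. Without GFP-positive library 2 or GFP-negative library 1 or 3 none of the receptors and adaptors was called higher, 1 was without GFP-positive library 1, and 2 were called lower without GFP-negative library 1 or 3.

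The calls of Traf5 and Tnfrsf1b held whichever library was left out. Those of Tnfrsf13c, Cd40, Traf2, Tnfrsf1a, Ltbr and Tnfrsf11a were each lost without GFP-negative library 1 (edgeR adjusted p = 0.0522, 0.0769, 0.0958, 0.103, 0.114 and 0.0543) and without GFP-negative library 3 (0.0519, 0.0586, 0.0919, 0.0805, 0.114 and 0.0642). Tnfrsf13c and Tnfrsf11a also lost theirs without GFP-negative library 2 (0.0562 and 0.0943). With GFP-positive library 1 left out, Traf2, Tnfrsf1a and Ltbr lost theirs (0.0707, 0.0866 and 0.0732), without library 2, Cd40, Tnfrsf1a, Ltbr and Tnfrsf11a (0.0593, 0.0619, 0.0938 and 0.0736), and without library 3, Traf2 and Ltbr (0.0577 and 0.0772). The log2FC of Tnfrsf13c was −11.09 without GFP-positive library 2 and −6.62 without library 3. That of Tnfrsf11a was 7.17 without GFP-positive library 2, 9.50 without GFP-negative library 1 and 7.40 without GFP-negative library 3.

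The branch that links antigen receptors to NF-kappaB, in which BCL10 and MALT1 act together, held no higher gene. Of 7 listed 6 were tested, and 3 were lower (50%, against 10.1% of all genes tested) and 3 not past the test, with a median log2FC of −2.72. Prkcb, the protein kinase C that acts below the B cell receptor, averaged 97.2 ± 19.2 CPM over GFP-positive and 597 ± 67.4 CPM over GFP-negative libraries (SD, n = 3 each), a log2FC of −2.62 ± 0.19 (SE; edgeR adjusted p = 0.000279). Bcl10 fell by a log2FC of −1.58 ± 0.37 (edgeR adjusted p = 0.0290) and Malt1 by one of −5.52 ± 1.46 (0.0426). DESeq2 called 4 of the 6, and edgeR called 1 when GFP-negative library 1, 2 or 3 was left out, and 2 when GFP-positive library 1 was. The call of Prkcb held whichever library was left out. Those of Bcl10 and Malt1 were lost without GFP-negative library 1 (edgeR adjusted p = 0.1001 and 0.116), 2 (0.0903 and 0.103) or 3 (0.0575 and 0.0951), that of Bcl10 also without GFP-positive library 1 (0.0645), and that of Malt1 without GFP-positive library 2 (0.0722) or 3 (0.0639). Without GFP-positive library 1 the log2FC of Malt1 was −9.49. All 9 B cell markers were lower too, and their part in these values was not tested.

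**Figure D5:**
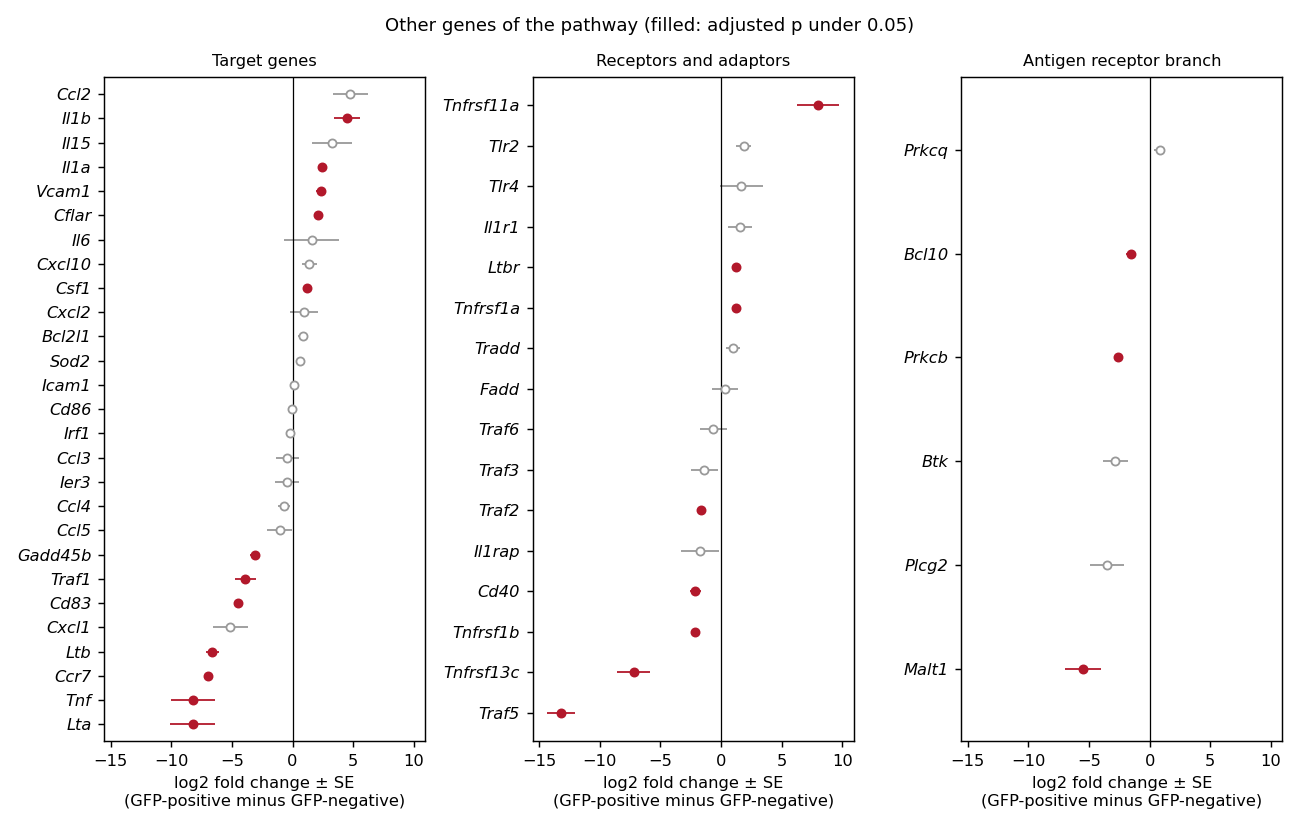
Log2 fold change (log2FC, GFP-positive minus GFP-negative) with its standard error for the tested target genes, receptors and adaptors, and antigen receptor branch genes; filled red points passed an adjusted p of 0.05. Target genes lie on both sides of 0 (5 higher, 7 lower), and the values of Traf5, Tnf and Lta, with 0 or 1 counts in the GFP-positive fraction, depend on a prior count and are no measured size.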

How the data were processed

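Poly-A RNA sequencing libraries of CD31-enriched liver cells were assigned to GFP-positive (3) and GFP-negative (3) groups by their label of sorted cells. The authors deposited raw counts per Ensembl gene for the 6 libraries. Of tools, the submitters' processing notes list edgeR, DESeq 1.18.0, RSEM, HTSeq 0.6.1, TopHat2 2.0.12 and Bowtie2 2.2.3, with no role for each. The genome build, annotation and strand setting behind the counts were not given in the sources used here.

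Of 35275 identifiers 34490 matched a symbol. In R 4.3.3, edgeR 4.0.16 (limma 3.58.1) kept 12122 genes by its expression filter (minimum count 10), scaled libraries by TMM and ran robust quasi-likelihood tests, with Benjamini-Hochberg adjustment. Genes were called at an adjusted p of 0.05. Fold changes are GFP-positive over GFP-negative, and standard errors were derived from the F statistic. The common biological coefficient of variation was 0.816. A count of 0 allows up to 3 counts, or 0.0584 CPM over the GFP-positive and 0.0496 CPM over the GFP-negative group, for counting error only, since reads carry no molecular identifiers. Alternatives were other scalings, no filter, DESeq2 1.42.0, lymphocyte genes left out, and each library left out.

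Replicate libraries differed beyond sampling noise (chi-square per degree of freedom 77.4 to 130.5). Members, lists and tests were chosen with earlier results of these data known. Every member is accounted for. From each of 3 pathway lists (60 genes, with 1 further gene not reported here) up to 6 called genes of smallest p and 2 more against the majority direction were named, and Tnf and Lta, chosen after their values were seen. Lists are described by counts and medians. Promoter sequences are from RefSeq, exon lengths and overlaps from GENCODE M21, both on GRCm38 and matched by symbol or identifier. Among called genes, exons of Nfkb2 overlap AC114539.1 (11.6% of bases) and Psd (6.52%), and those of Nfkbib overlap Ccer2 (14.5%). Those of Bcl3, Tnfaip2, Irak3 and Irak2 overlap other genes by at most 6.51%. Among genes not past the test, the largest overlaps were of Ticam2 with Tmed7 (14.5%), Tnfaip8 with C030005K06Rik (12.7%) and Myd88 with Acaa1a (11.3%). Next were Tirap with Gm39318 (9.05%) and Irak4 with Twf1 (7.87%). How many reads are shared was not measured, so these counts are uncertain.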

Additional observations from a re-analysis of the deposited data

How the results depend on the processing

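No paired analysis was possible because the labels give the groups no shared replicate numbers. Scaling by library totals alone or by median ratios, like the fit without lymphocyte genes, called 14 NF-kappaB genes lower and 1 higher, no filter 12 and 1, and DESeq2 17 and 1. DESeq2 also called 1426 genes of the whole table higher, against 927 with edgeR, and 4 of the antigen receptor branch lower. With each library left out in turn, 9 to 14 NF-kappaB genes were lower, with 9 without GFP-negative library 1, and 0 to 1 higher. Of all genes tested, 994 to 1810 then passed, 497 to 743 higher and 496 to 1067 lower. Target genes gave 3 to 6 higher and 4 to 6 lower, receptors and adaptors 0 to 2 higher and 2 to 5 lower, and the antigen receptor branch 1 to 3 lower. Each of these fits has 5 libraries, and the cause of the smaller counts was not tested. No called NF-kappaB gene changed direction in the alternatives run. Among those not past the test, the log2 fold change crossed 0 in 16 refits without 1 library, with ranges over the 6 omissions of Map3k7 (−0.0416 to 0.62), Birc2 (−0.11 to 0.20), Rnf31 (−0.46 to 0.70), Ticam2 (−0.65 to 0.85), Ikbkg (−0.43 to 0.46), Tab2 (−0.0806 to 0.78), Tirap (−0.43 to 0.90), Nfkb1 (−0.46 to 0.13) and Ripk1 (−0.0224 to 0.32). Nfkbiz, Map3k14, Ripk2 and Tirap each had at most 1 count in 1 GFP-positive library and above 7 CPM in another.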
